A study of Homo sapiens with 4 samples.

Results

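The genes described here are 43 cell cycle genes, measured by RNA-seq in human microglia-like cells made from induced pluripotent stem cells. They comprise 19 genes of DNA replication and entry into S phase and 24 genes of G2 and mitosis, of 35605 genes summed and 15388 tested in all. The members are a list of well-known proliferation genes chosen by name, and every one was found and passed the filter on low counts. The cells, called iMGL, were differentiated from the WTC11 line, and no treatment is named in the labels. There were 2 S1KO libraries, from lines edited to lack SHIP1, and 2 WT libraries, from control lines of the same background. Each genotype is described as having 2 clones, but the labels do not say which clone or culture gave which library. The p-values therefore measure the spread between these libraries, which may be partly technical. SHIP1 is the inositol phosphatase encoded by INPP5D and acts against PI3-kinase signalling in blood-derived cells. INPP5D had 81.0 and 97.6 CPM (read counts scaled to a common library size, with TMM factors) in S1KO 1 and S1KO 2, against 356 and 441 CPM in WT 1 and WT 2. The 2 S1KO values were below both WT values, at -2.16 ± 0.21 (SE) on the log2 scale (adjusted p = 0.0185 in edgeR's quasi-likelihood test with Benjamini-Hochberg adjustment).

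A dividing cell first licenses its replication origins by loading the MCM helicase with the help of CDC6 and CDT1, then fires them in S phase while ribonucleotide reductase, thymidylate synthase and thymidine kinase supply nucleotides. Cyclin E and E2F1 drive this entry into S phase. Cyclins A and B with CDK1, helped by FOXM1, then drive G2 and mitosis, in which kinetochore proteins, kinesins and the Aurora and Polo kinases build the spindle and the anaphase-promoting complex ends the division. Microglia in the adult brain divide slowly and depend on signals through CSF1R, and iMGL cultures are grown with factors that act on this receptor.

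The libraries differed in ways that bear on all these genes. Total estimated counts were 21516813 to 25927881 per library. Genes of the mitochondrial genome itself held 52.5% and 39.4% of gene-assigned counts in S1KO 1 and S1KO 2. In WT 1 and WT 2 they held 14.3% and 19%. Nuclear copies of these genes are not in these shares. The Wilson intervals at 95% were at most 0.044 percentage points wide and cover counting error only. The 43 genes held 11773 and 15952 counts in the S1KO libraries, against 27902 and 23013 counts in the WT libraries. Levels are given below as TMM-scaled CPM for this reason. Microglia markers were present in all 4 libraries, summing to 3487 and 3768 CPM in S1KO, against 5652 and 5525 CPM in WT over 16 genes, and of these SALL1 had no counts except 5 in WT 1. WT 1 also held collagen and other mesenchymal transcripts. The 12 mesenchymal markers summed to 14.9 and 31.0 CPM in S1KO 1 and S1KO 2, against 3727 CPM in WT 1 and 8.86 CPM in WT 2, and 11 of the 12 were highest in WT 1. None of the 12 was at 0 in WT 1, while 4 were at 0 in WT 2 (COL3A1, COL5A1, LUM and THY1). The 13 markers of blood progenitors summed to 132.9 and 139.7 CPM in S1KO, against 209.9 CPM in WT 1 and 152.4 CPM in WT 2, most of it TAL1, and MPO, ELANE and PRTN3 had no counts in any library. Of 6 that were tested, 3 passed the threshold against WT 1 alone in edgeR (2 higher and 1 lower) and none against WT 2 alone. The 9 pluripotency markers found in the files summed to 40.8 and 43.3 CPM in S1KO, against 32.1 and 31.1 CPM in WT, with SOX2 at 0 in both WT libraries. The part of such cells in the levels below was not tested.

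The promoters of both groups carry sequence elements known for cell cycle genes, and these are shown to make visible what the members share. RefSeq promoter sequences (GRCh38.p14, 250 bases before to 50 after a gene's start) were found for 35 of the 43 genes, as 46 promoters. Elements were searched on both strands as exact letters. The CCAAT box was taken as those letters. The cell cycle homology region, or CHR, was taken as TTTGAA. An E2F element was counted for the letters TTTCGCG, and likewise for the variant form TTTGGCG, as well as for the other variant, which reads TTTCCCG. Of 22 promoters of G2 and mitosis genes, 86.4% held a CCAAT box, 54.5% a CHR and 27.3% an E2F element, and 50% held both a CCAAT box and a CHR. Of 24 promoters of replication genes, 70.8% held a CCAAT box, 4.17% a CHR and 54.2% an E2F element. Over all 35116 promoters in the table the shares were 34.6% for the CCAAT box, 15.2% for the CHR, 7.21% for E2F elements and 5.9% for a CCAAT box together with a CHR. The CHR was thus frequent among the mitosis promoters and the E2F element among the replication promoters. A match describes letters in a window and is not a mapped site. The 200 bases before the start are printed below, 5′ to 3′ on the gene's strand with the elements in capitals. They are given for MKI67 and PLK1 as mitosis genes and for CDC6 and E2F1 as replication genes. CENPE is added as the member with the highest log2 fold change of S1KO over WT.
MKI67 (chr10:128126424-128126623, minus strand): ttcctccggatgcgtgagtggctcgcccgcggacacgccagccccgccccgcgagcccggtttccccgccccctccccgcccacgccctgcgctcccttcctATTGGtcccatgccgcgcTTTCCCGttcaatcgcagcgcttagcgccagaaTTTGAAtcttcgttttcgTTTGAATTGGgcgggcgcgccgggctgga
PLK1 (chr16:23678689-23678888, plus strand): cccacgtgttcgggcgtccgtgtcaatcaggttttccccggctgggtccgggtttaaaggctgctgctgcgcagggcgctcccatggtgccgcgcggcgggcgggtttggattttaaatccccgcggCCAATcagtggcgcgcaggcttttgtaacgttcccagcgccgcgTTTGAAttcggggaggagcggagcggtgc
CDC6 (chr17:40287679-40287878, plus strand): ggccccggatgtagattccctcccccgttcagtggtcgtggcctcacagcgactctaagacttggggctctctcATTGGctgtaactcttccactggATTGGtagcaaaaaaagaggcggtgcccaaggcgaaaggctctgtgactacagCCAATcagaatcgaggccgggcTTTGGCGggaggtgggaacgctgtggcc
E2F1 (chr20:33686386-33686585, minus strand): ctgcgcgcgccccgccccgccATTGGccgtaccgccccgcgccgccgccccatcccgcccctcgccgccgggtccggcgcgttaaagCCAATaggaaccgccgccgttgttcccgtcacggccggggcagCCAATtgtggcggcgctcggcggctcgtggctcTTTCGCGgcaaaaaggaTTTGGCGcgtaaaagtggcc
CENPE (chr4:103198344-103198543, minus strand): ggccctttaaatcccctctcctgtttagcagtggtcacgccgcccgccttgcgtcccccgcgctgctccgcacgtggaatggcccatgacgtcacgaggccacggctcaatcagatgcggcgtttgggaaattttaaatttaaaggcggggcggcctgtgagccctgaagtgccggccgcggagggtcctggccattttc
In PLK1 the CCAAT box begins 73 bases and the CHR 29 bases before the start. MKI67 holds 2 CHR matches, beginning 47 and 29 bases before the start, the nearer of which overlaps a CCAAT box read on the other strand, and an E2F element. CDC6 has 3 CCAAT boxes and an E2F element that begins 28 bases before the start, and E2F1 has 3 CCAAT boxes and 2 E2F elements, which begin 37 and 20 bases before the start. None of the letters searched occurs in the 200 bases shown for CENPE.

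**Figure D1:**
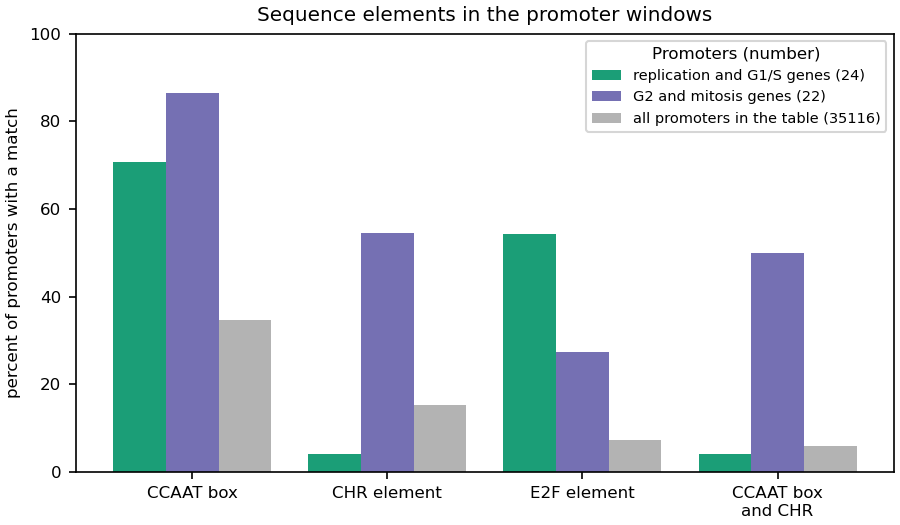
Percent of RefSeq promoter windows (250 bases before to 50 after the start) that hold each element on either strand, for the replication genes, the mitosis genes and all promoters in the table; the number of promoters is in the legend. The CHR was found in 54.5% of mitosis promoters and 4.17% of replication promoters, and E2F elements in 27.3% and 54.2%.

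None of the 43 genes differed between S1KO and WT past the threshold (adjusted p under 0.05, edgeR over all genes tested). Of all genes tested, 0.942% did (0.149% lower and 0.793% higher in S1KO). Of the 19 replication genes, 15 had a negative log2 fold change, with a median of -0.23, and of the 24 mitosis genes 19 had a negative one, with a median of -0.30. Over all genes 51.2% were negative and the median was -0.01. Only CENPE of the 43 had an unadjusted p below 0.05 in edgeR, where 2992 of all 15388 genes tested did, and its change was upward. DESeq2 called 1 of the 43, CENPE, also higher in S1KO, where it called 7.58% of all genes. In these bulk libraries fewer cycling cells and less of these RNAs per cell cannot be told apart. With 2 libraries on each side the intervals were wide. The 95% interval of the log2 fold change ran from -0.68 to 0.39 for MKI67 and from -0.74 to 0.61 for PCNA.

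For 28 of the 43 genes the sign of the fold change differed between the 2 WT libraries, 27 of them being negative against WT 1 and positive against WT 2. The other 15 kept 1 sign, 12 negative and 3 positive (CENPE, GMNN and RRM2). Against WT 1 alone, 39 of the 43 genes were negative, with medians of -0.57 for replication and -0.52 for mitosis genes. Against WT 2 alone, 30 of the 43 were positive, with medians of 0.11 and 0.10. The medians of all genes were near 0 in both (0.005 and 0.021). Of all genes tested, 49.7% were negative against WT 1 alone and 48.5% against WT 2 alone. How many of all genes changed sign between the WT libraries was not counted. In each of these comparisons 1 WT library was assumed to vary like the S1KO libraries.

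**Figure D2:**
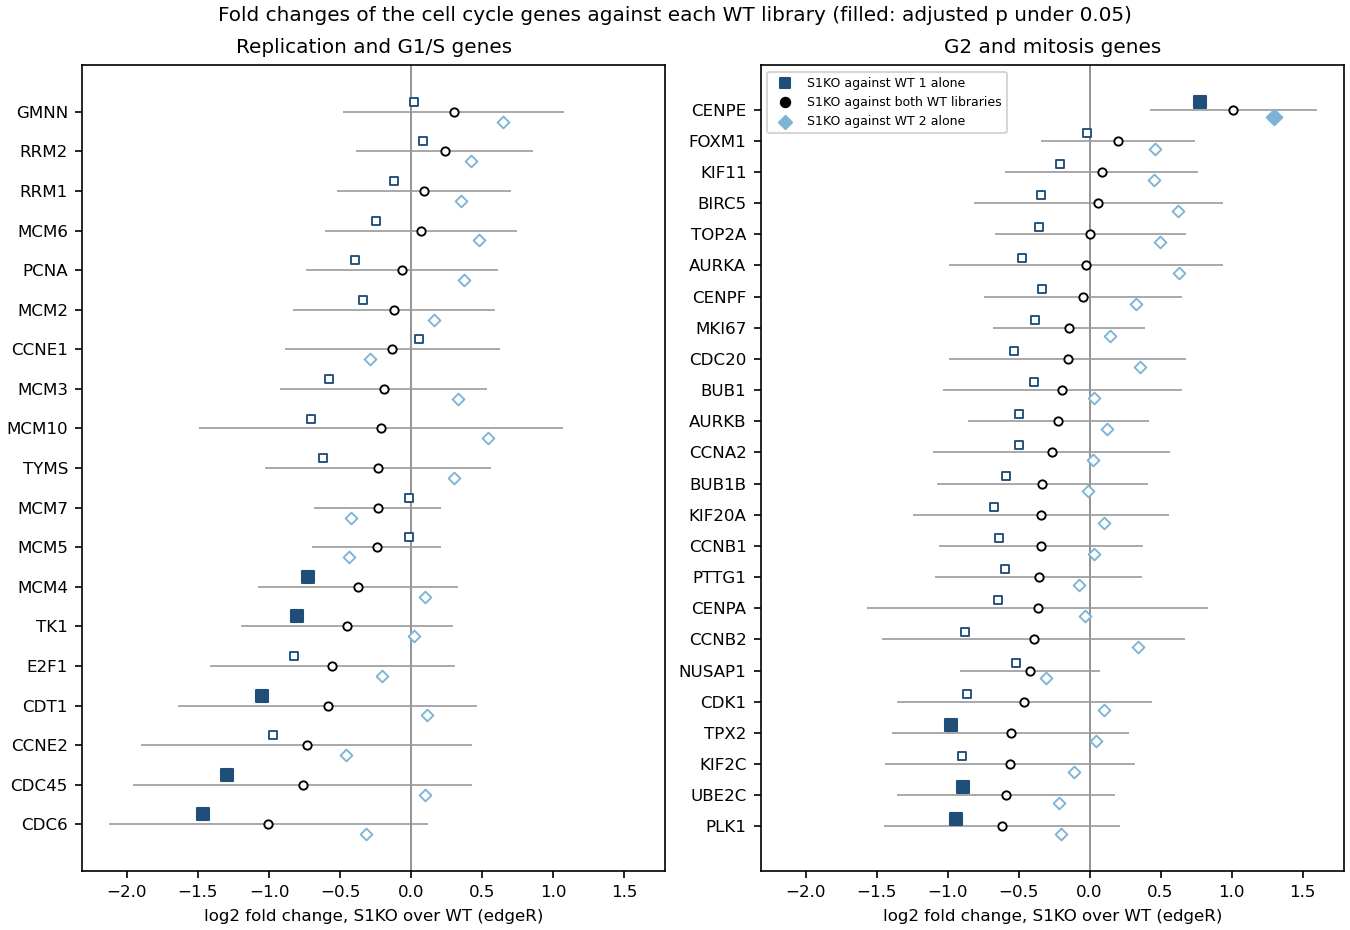
Log2 fold change of each gene, S1KO over WT (edgeR), against WT 1 alone (squares), both WT libraries (circles, with 95% intervals) and WT 2 alone (diamonds); filled symbols have adjusted p under 0.05. The squares lie mostly left of 0 and the diamonds mostly right of it, and CENPE is right of 0 in all 3.

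WT 1 was the highest library for 35 of the 43 genes, namely 13 of 19 replication and 22 of 24 mitosis genes. Of all genes tested, 25.3% were highest in WT 1. The lowest library varied more, being WT 2 for 21 of the 43 genes, S1KO 2 for 15, S1KO 1 for 6 and WT 1 for 1. Between the WT libraries, WT 1 was above WT 2 for 40 of the 43, with a median log2 ratio of 0.67, and 28 of the 43 were at least 1.5-fold higher in WT 1, against 12.7% of all genes. The median over all genes was -0.02. Both S1KO libraries lay above WT 2 and below WT 1 for 16 of the 43 genes (6.91% of all genes). The opposite order, with WT 2 highest, is not in this count. They lay below both WT libraries for 4 (25.8% of all genes) and above both for 2 (26.0% of all genes). WT 1 is the library with the mesenchymal transcripts, and their part in its cell cycle levels was not tested. A comparison of WT 1 with WT 2 has 1 library on each side and no test. The count of members highest in WT 1 was 32 to 35 of 43 with DESeq2's size factors, coding transcripts and TPM without mitochondrial genes, where 22.7% to 28% of all genes were highest in WT 1, and 39 of 43 in deposited TPM, where 51.5% of all genes were.

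**Figure D3:**
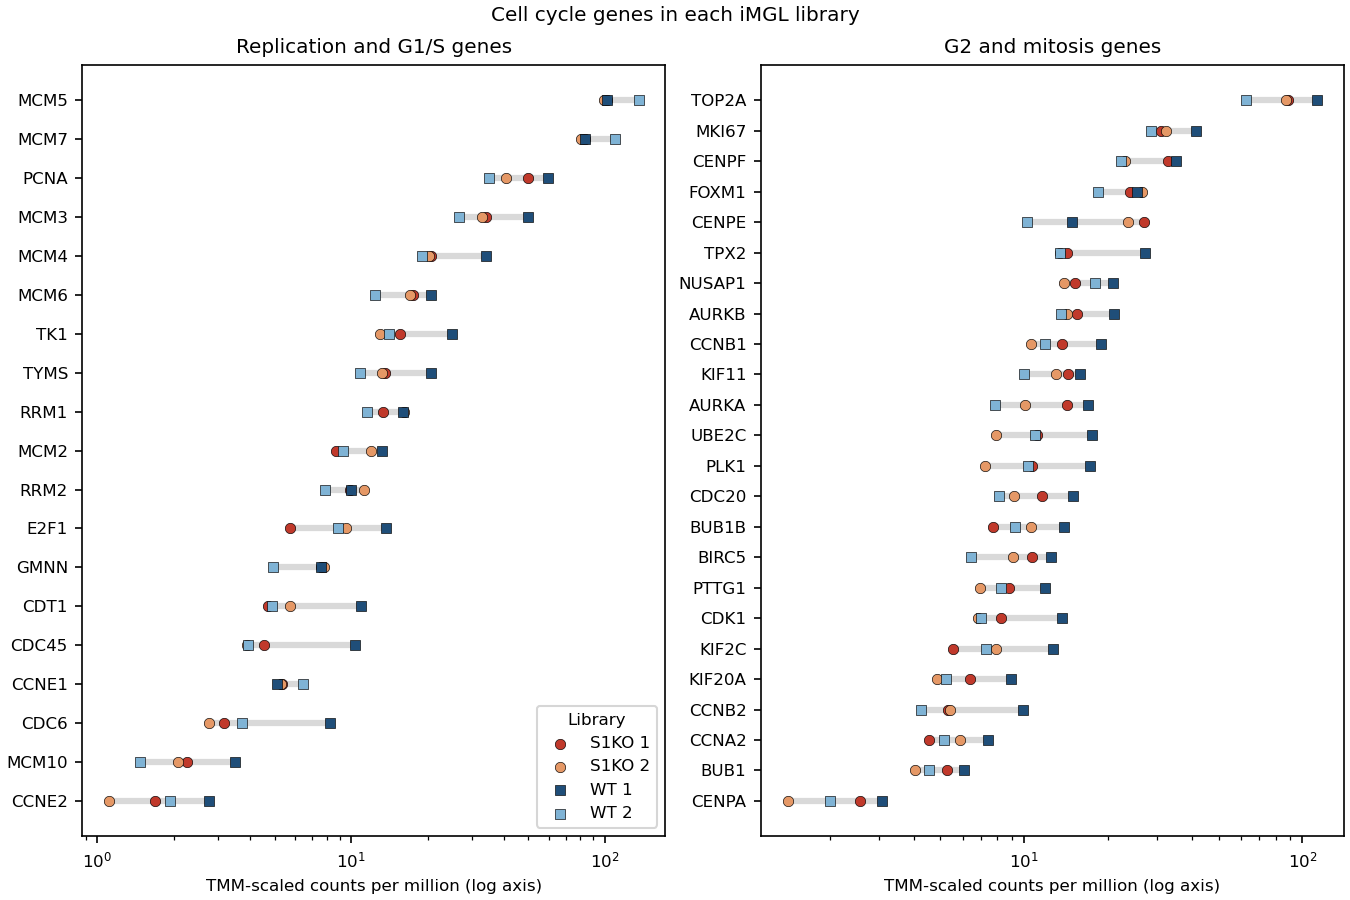
TMM-scaled CPM (log axis) of each gene in S1KO 1 and S1KO 2 (circles) and WT 1 and WT 2 (squares), with replication genes on the left and mitosis genes on the right; grey bars span the 4 libraries. WT 1 is the rightmost point for 35 of the 43 genes, and CENPE is the mitosis gene with both circles right of both squares.

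The summed levels of the lists placed the S1KO libraries differently for mitosis and replication genes. The 24 mitosis genes summed to 389.7 and 355.4 CPM in S1KO 1 and S1KO 2, against 500.8 CPM in WT 1 and 305.6 CPM in WT 2, so that both S1KO libraries lay between the WT libraries. The 19 replication genes summed to 403.7 and 394.6 CPM in S1KO, against 496.4 CPM in WT 1 and 428.8 CPM in WT 2. Here both S1KO libraries were below both WT libraries, and MCM5 and MCM7, the most abundant members per length, were highest in WT 2. Without these, a choice made after seeing the data, the other 17 replication genes summed to 218.3 and 214.8 CPM in S1KO, against 311.3 CPM in WT 1 and 182.8 CPM in WT 2, the same placing as for the mitosis genes. The median log2 ratio of WT 1 to WT 2 was 0.73 for replication and 0.67 for mitosis genes. The S1KO libraries were close to each other for most members. S1KO 1 was above S1KO 2 for 31 of the 43 genes (49.2% of all genes), and at least 1.5-fold above it for 2 (8.35% of all genes). It was at least 1.5-fold below S1KO 2 for 1, E2F1 (1810 of all 15388 genes tested). The median log2 ratio of S1KO 1 to S1KO 2 was 0.12 for the members and -0.006 over all genes.

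**Figure D4:**
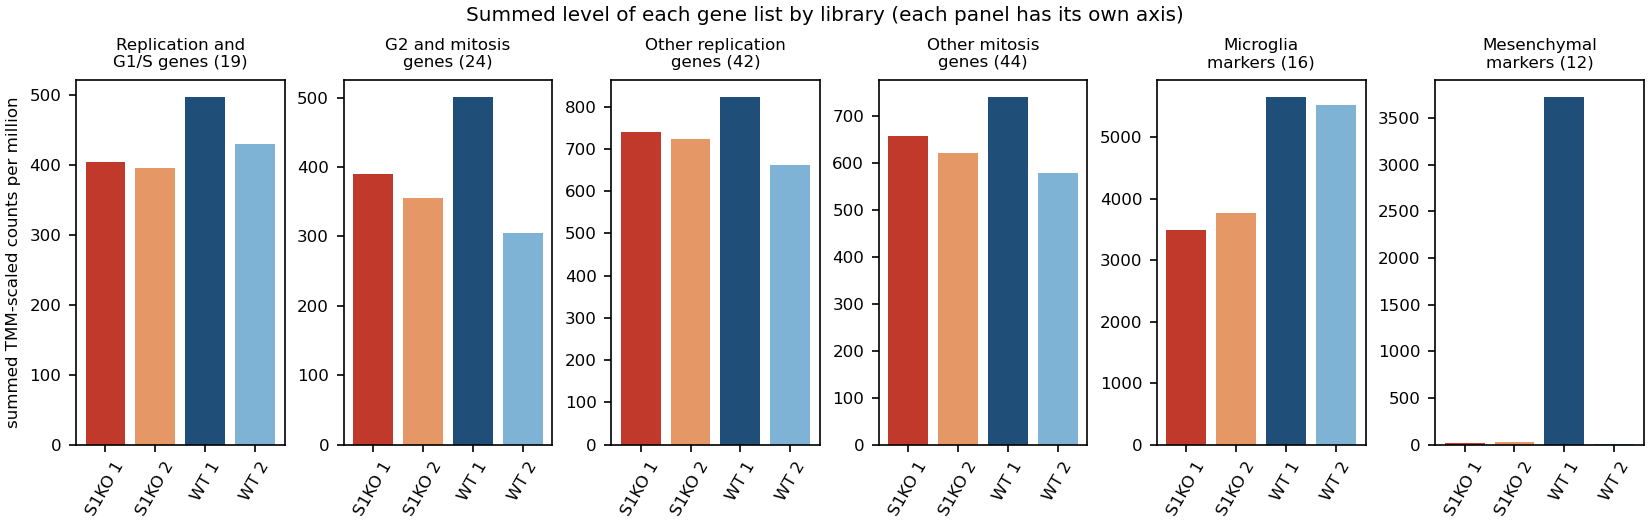
Summed TMM-scaled CPM of each gene list in S1KO 1, S1KO 2, WT 1 and WT 2, each panel with its own axis from 0. WT 1 has the tallest bar in the 4 cell cycle panels (for example 500.8 CPM for the mitosis genes), and in the mesenchymal panel it stands at 3727 CPM while the other libraries are at 31.0 CPM or less.

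For CDC6, CDT1 and CDC45, levels in S1KO were near those in WT 2 and below those in WT 1. CDC6, which loads the helicase at origins, had 3.14 and 2.76 CPM in S1KO, against 8.23 CPM in WT 1 and 3.71 CPM in WT 2. Both S1KO libraries were below both WT libraries, most of the gap being to WT 1, and the log2 fold change was -1.0 ± 0.47 (SE; edgeR adjusted p = 0.301). CDT1, its partner in loading, had 4.70 and 5.73 CPM in S1KO, against 10.9 CPM in WT 1 and 4.86 CPM in WT 2. The S1KO values spanned that of WT 2, and WT 1 stood apart. CDC45, a part of the active helicase, had 4.52 and 3.90 CPM in S1KO, against 10.4 CPM in WT 1 and 3.93 CPM in WT 2, again with only WT 1 high. GMNN, which encodes geminin, the inhibitor of CDT1, differed from these. It had 7.62 and 7.80 CPM in S1KO, against 7.61 CPM in WT 1 and 4.92 CPM in WT 2, with a log2 fold change of 0.30 ± 0.32 (SE; edgeR adjusted p = 0.654). The S1KO libraries were level with WT 1 and above WT 2.

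The subunits of the MCM helicase did not all follow one order. MCM5 had 102 and 99.6 CPM in S1KO, against 102 CPM in WT 1 and 136 CPM in WT 2. MCM7 had 83.7 and 80.3 CPM in S1KO, against 83.2 CPM in WT 1 and 110 CPM in WT 2. For both, 3 libraries were alike and WT 2 was high, unlike most members. MCM4 had 20.6 and 20.3 CPM in S1KO, against 33.9 CPM in WT 1 and 19.1 CPM in WT 2. MCM2 had 8.69 and 12 CPM in S1KO, against 13.2 CPM in WT 1 and 9.29 CPM in WT 2. In MCM4 WT 1 alone was high, and in MCM2 the groups overlapped, as they did in MCM3, MCM6 and MCM10, the last an initiation factor outside the ring. MCM3 ranged from 26.6 to 50 CPM, MCM6 from 12.4 to 20.6 CPM and MCM10 from 1.47 to 3.49 CPM, each lowest in WT 2 and highest in WT 1. The log2 fold changes of MCM2 to MCM7 and MCM10 lay between -0.37 and 0.07. PCNA, the sliding clamp of the polymerases, had 50 and 40.8 CPM in S1KO, against 59.9 CPM in WT 1 and 35.0 CPM in WT 2. Both S1KO libraries were between the WT libraries, and the log2 fold change was -0.06 ± 0.28 (SE; edgeR adjusted p = 0.923).

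Genes of nucleotide supply stood on both sides of 0. TK1, thymidine kinase, had 15.6 and 13 CPM in S1KO, against 24.9 CPM in WT 1 and 14.1 CPM in WT 2. TYMS, thymidylate synthase, had 13.6 and 13.2 CPM in S1KO, against 20.6 CPM in WT 1 and 10.8 CPM in WT 2. In both WT 1 was the highest library, and WT 2 lay within or below the S1KO libraries. RRM2, the regulated subunit of ribonucleotide reductase, had 9.93 and 11.2 CPM in S1KO, against 10 CPM in WT 1 and 7.87 CPM in WT 2. RRM1, the large subunit, had 13.3 and 16.1 CPM in S1KO, against 16 CPM in WT 1 and 11.5 CPM in WT 2. For both subunits S1KO 2 was the highest library, and the log2 fold changes were 0.24 ± 0.26 and 0.09 ± 0.26 (SE), with adjusted p of 0.656 and 0.875 (edgeR).

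The drivers of S phase entry were low in all libraries. E2F1, an activating factor for the replication genes, had 5.73 and 9.54 CPM in S1KO, against 13.7 CPM in WT 1 and 8.84 CPM in WT 2. The S1KO libraries lay on either side of WT 2, and the log2 fold change was -0.55 ± 0.36 (SE; edgeR adjusted p = 0.447). CCNE2, one of the cyclin E genes, had 1.69 and 1.11 CPM in S1KO, against 2.75 CPM in WT 1 and 1.93 CPM in WT 2. Both S1KO libraries were below both WT libraries, but these levels rest on 25.1 and 23.6 estimated counts in S1KO, against 77.0 and 60.4 estimated counts in WT, and the adjusted p was 0.451 (edgeR). CCNE1, the other cyclin E gene, was within 5.11 to 6.48 CPM in all 4 libraries.

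The general markers of cycling cells overlapped between the groups. MKI67, which encodes the Ki-67 protein of dividing cells, had 31.0 and 32.3 CPM in S1KO, against 41.5 CPM in WT 1 and 28.6 CPM in WT 2. TOP2A, the DNA topoisomerase that untangles sister chromatids, had 89.0 and 87.6 CPM in S1KO, against 113 CPM in WT 1 and 62.7 CPM in WT 2. In both, the S1KO libraries agreed closely and lay between the WT libraries. The log2 fold changes were -0.14 ± 0.22 for MKI67 and 0.01 ± 0.28 for TOP2A (SE; edgeR adjusted p = 0.761 and 0.995). CDK1, the mitotic kinase, had 8.22 and 6.82 CPM in S1KO, against 13.7 CPM in WT 1 and 6.99 CPM in WT 2. CCNB1, its cyclin partner, had 13.7 and 10.6 CPM in S1KO, against 18.9 CPM in WT 1 and 11.9 CPM in WT 2. WT 2 lay inside the range of the S1KO libraries for both, and WT 1 was above it. FOXM1, a transcription factor of G2 genes, had 24 and 26.4 CPM in S1KO, against 25.5 CPM in WT 1 and 18.4 CPM in WT 2, so that S1KO 2 was the highest library and WT 2 the lowest. On coding transcripts alone FOXM1 had 22.2 and 25.9 CPM in S1KO, against 19.1 and 16.5 CPM in WT, with both S1KO libraries above both WT libraries (edgeR adjusted p = 0.362).

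The mitosis genes of lowest fold change were PLK1, UBE2C and KIF2C, which act in the mitotic spindle and at anaphase. PLK1, the Polo-like kinase, had 10.7 and 7.21 CPM in S1KO, against 17.2 CPM in WT 1 and 10.3 CPM in WT 2, with a log2 fold change of -0.62 ± 0.34 (SE; edgeR adjusted p = 0.381). UBE2C, the ubiquitin-conjugating enzyme of the anaphase-promoting complex, had 11.1 and 7.90 CPM in S1KO, against 17.5 CPM in WT 1 and 10.9 CPM in WT 2. For both genes the S1KO libraries lay on either side of WT 2, and only WT 1 was above both. KIF2C, a kinesin that takes microtubule ends apart, had 5.53 and 7.94 CPM in S1KO, against 12.7 CPM in WT 1 and 7.31 CPM in WT 2. TPX2, which activates AURKA at the spindle, had 14.2 and 13.4 CPM in S1KO, against 27.2 CPM in WT 1 and 13.4 CPM in WT 2. In these too WT 1 alone stood above the rest. AURKB, the kinase that corrects chromosome attachment, had 15.5 and 14.2 CPM in S1KO, against 21.0 CPM in WT 1 and 13.6 CPM in WT 2. PTTG1, securin, had 8.83 and 6.91 CPM in S1KO, against 11.9 CPM in WT 1 and 8.27 CPM in WT 2. KIF11, the kinesin that separates the spindle poles, had 14.4 and 13 CPM in S1KO, against 15.9 CPM in WT 1 and 10 CPM in WT 2. In KIF11 and AURKB both S1KO libraries were between the WT libraries, and in PTTG1 they lay on either side of WT 2. Of the remaining mitosis genes (CCNA2, CCNB2, CDC20, BUB1, BUB1B, AURKA, BIRC5, CENPF, CENPA, KIF20A and NUSAP1), all were highest in WT 1, at 1.41 CPM (CENPA in S1KO 2) to 35.2 CPM (CENPF in WT 1), with log2 fold changes of -0.42 to 0.06 for S1KO against both WT libraries. NUSAP1 was the 1 mitosis gene with both S1KO libraries below both WT libraries (25.8% of all genes). It had 15.2 and 13.9 CPM in S1KO, against 20.8 CPM in WT 1 and 18.0 CPM in WT 2. Its log2 fold change was -0.42 ± 0.21 (SE, edgeR adjusted p = 0.327).

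CENPE was, on counts of all transcripts, the mitosis gene with both S1KO libraries above both WT libraries. It encodes the kinetochore kinesin that carries chromosomes to the middle of the spindle (chromosome 4, 103105806 to 103198409, minus strand, GRCh38 with GENCODE 29). It had 26.9 and 23.6 CPM in S1KO, against 14.8 CPM in WT 1 and 10.2 CPM in WT 2. The lower S1KO library was above the higher WT library. The log2 fold change was 1.01 ± 0.24 (SE, 95% interval 0.42 to 1.60), with an unadjusted p of 0.00528 and an adjusted p of 0.106 (edgeR). Its call depended on the fit: DESeq2 gave an adjusted p of 0.0149 and edgeR without the filter on low counts gave 0.0201, while the other edgeR settings on all 4 libraries gave 0.0859 to 0.159. Against WT 1 alone the log2 fold change was 0.78 ± 0.26 (adjusted p = 0.0459) and against WT 2 alone 1.30 ± 0.27 (adjusted p = 0.000332, both edgeR). The call against WT 1 was lost with DESeq2 (adjusted p = 0.192), with no filter (0.0548), with the length offset (0.0725) and on coding transcripts (0.0953), and those settings kept the call against WT 2, while limma called CENPE on none of the 3 TPM scales. In the deposited TPM, whose total includes the mitochondrial transcripts, CENPE had 1.95 and 3.10 in S1KO, against 2.76 and 1.74 in WT, and the groups overlapped. With mitochondrial genes left out of the total it had 7.41 and 7.40 TPM in S1KO, against 3.77 and 2.57 TPM in WT. Nearly all its counts were on the long coding transcripts CENPE-201 and CENPE-202 in every library.

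Set against WT 1 alone, 9 of the 43 genes passed the threshold in edgeR, against 13.2% of all genes tested. The 8 that fell were CDC6, CDC45, CDT1, MCM4 and TK1 among the replication genes and PLK1, TPX2 and UBE2C among the mitosis genes, where 7.27% of all genes fell, and CENPE rose, as did 5.9% of all genes. The log2 fold changes of the 8 were from -1.47 ± 0.41 (SE) for CDC6 (adjusted p = 0.0124) to -0.73 ± 0.24 for MCM4 (adjusted p = 0.0398). TPX2, at -0.98 ± 0.25, had the smallest adjusted p of the members, 0.00733. These calls depended on the tool and on the transcripts counted. With DESeq2 all of them were lost. In edgeR with an offset for effective length only that of TPX2 was kept, and on coding transcripts only those of CDC6 and TPX2. Set against WT 2 alone, CENPE was the 1 gene called, where 12.3% of all genes passed (6.4% lower and 5.9% higher). The adjusted p of the 8 genes against WT 2 alone was 0.732 (UBE2C) or more. The comparisons with WT 1 and with WT 2 share the S1KO libraries.

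The rest of the cell cycle machinery was read from 7 further lists with 155 genes, none of which passed the threshold for S1KO against both WT libraries in edgeR. At an unadjusted p under 0.05 in edgeR there were 13 of the 155, where 2992 of all 15388 genes tested were. DESeq2 called 1 of the 155, CCND3, where it called 7.58% of all genes. The 42 other replication genes had a median log2 fold change of -0.10 and summed to 739.3 and 724.4 CPM in S1KO, against 822.8 CPM in WT 1 and 661.9 CPM in WT 2. The 44 other mitosis genes had a median of -0.21 and summed to 659.0 and 622.4 CPM in S1KO, against 741.5 CPM in WT 1 and 578.5 CPM in WT 2. Both sums placed the S1KO libraries between the WT libraries, as for the mitosis members. WT 1 was the highest library for 22 of the 42 and 30 of the 44. The 17 factors of the E2F, RB and DREAM families had a median of 0.12, and 2 of them were highest in WT 1. Their sums were 497.6 and 405.3 CPM in S1KO, against 457.2 and 452.4 CPM in WT, with RB1, the pocket protein that holds back E2F, at 160 and 111 CPM in S1KO, against 108 and 107 CPM in WT. The 22 checkpoint and degradation genes had a median of -0.11. Medians were -0.33 for the 10 G1 cyclins and kinases, -0.462 for the 7 CDK inhibitors and -0.355 for 13 genes of the p53 response. In each of these lists both S1KO sums were below both WT sums. The G1 sums were 371.5 and 347.1 CPM in S1KO, against 497.2 and 379.4 CPM in WT. Those of the inhibitors were 249.1 and 222.7 CPM, against 308.6 and 269.2 CPM. Those of the p53 list were 713.2 and 717.7 CPM, against 788.0 and 928.6 CPM.

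The cyclins and kinases of G1 and the CDK inhibitors held genes with larger gaps. CCND2, a D-type cyclin, had 1.89 and 3.40 CPM in S1KO, against 35.3 CPM in WT 1 and 3.77 CPM in WT 2, so that WT 1 was far above the other libraries, and the log2 fold change was -2.87 ± 0.97 (SE; edgeR adjusted p = 0.193) or -0.50 ± 0.49 against WT 2 alone (adjusted p = 0.59). CCND1 had 117 and 127 CPM in S1KO, against 203 CPM in WT 1 and 129 CPM in WT 2, with the same order. CCND3 had 54.3 and 44.9 CPM in S1KO, against 71.8 and 80.5 CPM in WT. Both S1KO libraries were below both WT libraries, at a log2 fold change of -0.62 ± 0.18 (SE; edgeR adjusted p = 0.144). CDKN2A, which encodes the inhibitor p16 and the ARF protein, had 9.84 and 8.13 CPM in S1KO, against 16.2 and 15.8 CPM in WT. Here the WT libraries were alike and both S1KO libraries were lower, at -0.83 ± 0.23 (SE; edgeR adjusted p = 0.134), with -0.85 against WT 1 alone (adjusted p = 0.0459) and -0.82 against WT 2 alone (adjusted p = 0.0493). Both of these calls were lost with DESeq2 (adjusted p = 0.312 and 0.296), with the length offset (0.318 and 0.315), on coding transcripts (0.171 and 0.206) and on the 3 TPM scales in limma, and that against WT 2 also with no filter (0.0532) and the stricter filter (0.0594). CDKN1B, the inhibitor p27, had 26.6 and 25.3 CPM in S1KO, against 21.7 and 18.1 CPM in WT, with S1KO above both WT libraries (log2 fold change 0.38, edgeR adjusted p = 0.341). CDKN1A, the inhibitor p21, had 180 and 161 CPM in S1KO, against 235 and 187 CPM in WT (log2 fold change -0.31, edgeR adjusted p = 0.417). The G1 kinases overlapped between groups. CDK4 had 36.7 and 27.7 CPM in S1KO, against 37.5 and 23.7 CPM in WT. CDK6 had 12.1 and 6.21 CPM in S1KO, against 15.4 and 9.24 CPM in WT. WT 1 was the highest library for both.

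Compared per length, MCM7, MCM5 and PCNA were the most abundant members. Their mean TPM over the 4 libraries was 52.9, 48.1 and 47.8, and the most abundant mitosis genes followed, TOP2A at 33.6, UBE2C at 25.4, AURKB at 25.1 and PTTG1 at 20.2 TPM. The lowest were CCNE2 at 1.45 and MCM10 at 0.757 TPM. Deposited TPM were lower in S1KO for most genes, with a median of -0.78 on the log2(TPM + 1) scale over all genes tested in limma, and the members' medians there were -1.03 for replication and -1.04 for mitosis genes. On that scale limma called 7 of the 43 lower in S1KO, where it called 18.0% of all genes lower. With TPM rescaled to a total without mitochondrial genes, the median of all genes was 0.06 and those of the members -0.10 and -0.20.

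The transcripts that took the counts were mostly coding. For 26 of the 43 genes over 90% of the counts were on transcripts annotated as protein coding in every library, and 4 genes (MCM7, TYMS, RRM1 and CENPA) had under 50% in at least 1 library. Over all members the coding share was 82.8% and 81.2% in S1KO, against 85.4% and 77.3% in WT. MCM7 had 75.1% and 82.1% of its counts on retained-intron transcripts in S1KO, against 77.4% and 71.0% in WT, with Wilson intervals at 95% from 72.6 to 77.4% in S1KO 1 and from 69.5 to 72.5% in WT 2. This share was high in all 4 libraries, so that the MCM7 levels above are mostly not levels of the coding transcript, which had 20.8 and 14.4 CPM in S1KO, against 18.8 and 31.8 CPM in WT. TYMS had 46.3% (interval 39.5 to 53.2%) and 44.5% (38.8 to 50.3%) on the retained-intron transcript TYMS-204 in S1KO 1 and S1KO 2, against 5.19% (3.66 to 7.31%) in WT 1 and 18.9% (15.1 to 23.4%) in WT 2. The S1KO libraries were above both WT libraries in this share, and the intervals cover counting error only. TYMS overlaps ENOSF1 on the other strand, and no source used here says whether counting used strand, so reads of the 2 genes may be mixed. On coding transcripts TYMS had 5.94 and 3.61 CPM in S1KO, against 15.1 CPM in WT 1 and 4.72 CPM in WT 2. RRM1 had most of its counts on transcripts annotated as targets of nonsense-mediated decay, and its coding share was 38.6% and 18.1% in S1KO, against 12% and 10.8% in WT. Its coding level was 5.10 and 2.90 CPM in S1KO, against 1.92 and 1.25 CPM in WT, higher in both S1KO libraries (log2 fold change 1.33 ± 0.50 SE, edgeR adjusted p = 0.27 on coding transcripts). How kallisto divides reads among transcripts that differ in few exons is an estimate, and these shares carry that error too. CENPA, the centromeric histone, had only 38 and 30 counts in S1KO, against 86 and 63 counts in WT, too few to compare its shares.

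**Figure D5:**
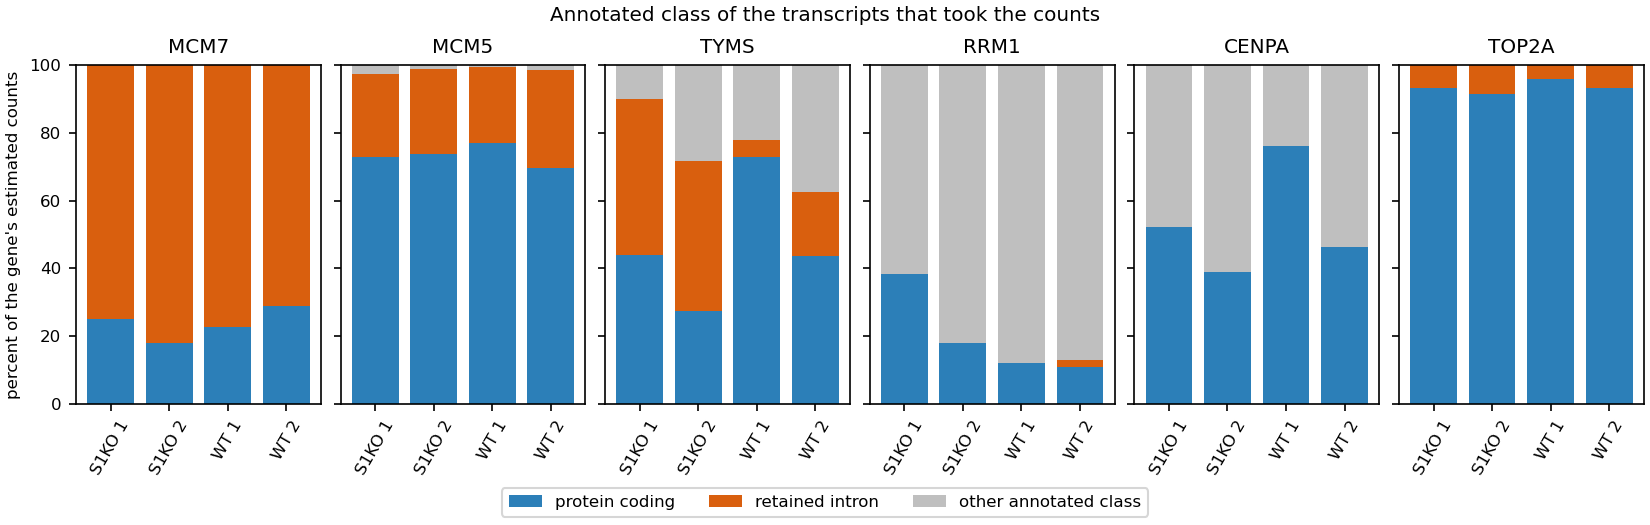
Percent of each gene's estimated counts on transcripts annotated as protein coding, retained intron or another class, in S1KO 1, S1KO 2, WT 1 and WT 2. The retained-intron share of TYMS is 46.3% and 44.5% in S1KO, against 5.19% and 18.9% in WT, while that of MCM7 is above 70% in every library and TOP2A is over 90% coding.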

How the data were processed

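RNA-seq was made from 4 iMGL libraries, 2 S1KO and 2 WT. Per the labels' protocols, RNA came from a column kit and was poly-A selected for paired sequencing. The authors quantified reads with kallisto on hg38, per the submitters' processing notes; its version, the transcript set and the strand setting were not found in the sources used here. What the authors deposited is, per the file headers, an estimated count and a TPM for each transcript, in 1 file per library without pooling.

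Of 188753 transcripts, 169797 were assigned to genes by identifier with GENCODE 29 (GRCh38), 15521 by symbol, and 3435 had no gene and were left out (0.323% to 0.643% of counts). Estimated counts were summed per gene and rounded, then tested with edgeR 4.0.16 in R 4.3.3 (filterByExpr, TMM, quasi-likelihood test, two-sided, Benjamini-Hochberg at 0.05) with genotype as the only term, on all 4 libraries and with each WT library alone. The TMM factors were 0.653 and 0.957 in S1KO 1 and S1KO 2 and 1.31 and 1.22 in WT 1 and WT 2. A fold change is S1KO over WT. The common biological coefficient of variation was 0.294. No library was a copy of another: each pair had 263 or more genes at least 4-fold different. The procedure was tested on simulated data.

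The members and lists were chosen with earlier results of these data known. Values in every library are given for MKI67, TOP2A, CDK1, CCNB1, PCNA, MCM2, E2F1 and FOXM1, for the 4 members of highest mean TPM, the top 3 and bottom 3 by log2 fold change in each group, for any called member, and for 9 regulators; 1 more that the rule names is not reported here. CCNE1, NUSAP1 and the coding levels were added after their values were seen. The alternatives were DESeq2 1.42.0 and its size factors, other filters, each library left out, the replicate number as a block, a length offset, mitochondrial genes left out, coding transcripts only, and limma 3.58.1 on log2(TPM + 1) and log2(TPM + 0.1).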

Additional observations from a re-analysis of the deposited data

How the results depend on the processing

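No member was called for S1KO against both WT libraries with DESeq2's size factors, the stricter filter, the length offset, the replicate block, coding transcripts only or mitochondrial genes left out (edgeR, or limma on TPM without them). DESeq2 and edgeR without a filter each called 1, CENPE, where they called 1167 of 15388 and 1362 of 22536 genes. In limma 7 were called on log2(TPM + 1) and 6 on log2(TPM + 0.1), all lower. Of all genes tested, 18.0% were lower on log2(TPM + 1) and 2522 of 15388 on log2(TPM + 0.1). Leaving out each library gave 0 to 9 members called, 0 to 2139 genes called and 0 to 12 genes of the other cell cycle lists; the medians ran from -0.57 to 0.11 for replication and from -0.52 to 0.10 for mitosis genes. Without WT 1 there were 1978 genes, 1 member and 12 list genes called, without WT 2 2139, 9 and 12, and without either S1KO library 0 genes, a lone library being assumed to vary like the others. Genes called numbered 1167 with DESeq2 (1 of the other lists), 1362 with no filter (2), 224 with the stricter filter, 21 on coding transcripts, 2896 on log2(TPM + 1) (26), 2642 on log2(TPM + 0.1) (22), 283 on TPM without mitochondrial genes (1) and 0 with the replicate block, whose medians were -0.16 and -0.26. Same-numbered libraries did not deviate together (correlation 0.025), and the labels give the number no meaning. The medians were -1.03 and -1.04 on log2(TPM + 1), and -1.16 and -1.27 on log2(TPM + 0.1).

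Against WT 1 alone, genes and members called were 1191 and 0 with DESeq2, 1246 and 3 on coding transcripts, 993 and 1 on log2(TPM + 1), 759 and 1 on log2(TPM + 0.1), 0 and 0 on TPM without mitochondrial genes, and 2 members with the length offset; the medians were -1.25 and -1.38, and -1.46 and -1.54, on the 2 TPM scales. Against WT 2 alone, genes called were 969 with DESeq2 and 778 on coding transcripts, and 262, 117 and 268 on the 3 TPM scales, with 0 members; the medians were -0.66 and -0.76, and -0.86 and -0.90, on the first 2. These alternatives against 1 WT library, and the other scalings of the levels, were chosen after seeing the data.

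Of 407 values of 37 named genes under the alternatives that keep all libraries, 354 kept direction and side of the threshold, 27 crossed the threshold and 26 changed sign. On log2(TPM + 1) and log2(TPM + 0.1) the log2 fold changes were -0.60 and -0.68 for GMNN, -1.04 and -1.21 for RRM1, -0.74 and -0.91 for RRM2, -0.63 and -0.65 for TOP2A, -0.62 and -0.81 for KIF11, -0.70 and -0.78 for FOXM1, -0.65 and -0.71 for CDKN1B, -0.80 and -0.83 for CDK4, and -0.21 and -0.22 for RB1, where the median of all genes was -0.78 on the first. On TPM without mitochondrial genes they were 0.08 for PCNA, -0.14 for RRM1 and 0.14 for TYMS; with the length offset -0.24 for RRM1 and 0.02 for TYMS; on coding transcripts -0.03 for TOP2A and -0.01 for CDK4; and with no filter -0.02 for TOP2A. Leaving out each library, the sign changed within these ranges: CDC45 -1.30 to 0.10, CDT1 -1.05 to 0.11, MCM2 -0.39 to 0.16, MCM4 -0.73 to 0.10, PCNA -0.40 to 0.38, RRM1 -0.12 to 0.35, TYMS -0.62 to 0.31, TK1 -0.80 to 0.02, MKI67 -0.38 to 0.15, TOP2A -0.36 to 0.50, CDK1 -0.86 to 0.10, CCNB1 -0.64 to 0.03, AURKB -0.50 to 0.13, KIF11 -0.21 to 0.45, TPX2 -0.98 to 0.04, FOXM1 -0.01 to 0.46 and CDK4 -0.22 to 0.44. In a window of 100 bases before to 50 after the start, the CHR was in 0.0% of replication and the CCAAT box in 63.6% of mitosis promoters. Over all promoters these shares were 6.84% and 21.3% in that window. The cause of these changes was not tested. With 2 libraries a group, and 30 counts or fewer for some members, small changes could be missed. Larger ones could be missed too, as CDC6 at 0.498-fold and CENPE at 2.02-fold did not pass the threshold in edgeR (adjusted p = 0.301 and 0.106).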
